A study of Mus musculus with 23 samples.

Results

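The genes described here are 31 genes of neurogenesis and cell proliferation, chosen by symbol as a module of cell-cycle genes, progenitor genes and genes of young neurons. All 31 have a row among the 24421 rows of the count table, and all 31 passed the low-count filter that left 15475 genes for testing. The samples are hippocampi of mouse pups taken on postnatal day 14, in 23 libraries of polyadenylated RNA, 1 per sample. The non-bled controls (NBC), 4 females and 3 males, were pricked with a needle at the neck and lost no blood by design. In the moderate group (mPIA) blood was drawn towards a haematocrit of 25%, and in the severe group (sPIA) towards 18%, with 4 females and 4 males in each. Bleeding from the facial vein began on postnatal day 3 at 5.25 ul per g, 2 times a day, and went on once daily at 3.5 ul per g after the goal was reached. All groups share the age at death, postnatal day 14, while needle pricks and blood draws differed between them as given. The labels do not state strain, genotype, litters or the haematocrit each pup reached. No source says whether libraries of a group came from separate litters, so p-values measure the spread between these samples.

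In the postnatal hippocampus, stem cells and transit-amplifying progenitors of the dentate gyrus keep dividing and produce granule neurons. Progression through the cell cycle is driven by cyclins and their kinases: D-type cyclins act at the entry into S phase, minichromosome maintenance (MCM) proteins and PCNA in DNA replication, and mitotic kinases, motors and kinetochore proteins in chromosome segregation. Daughter cells that leave the cycle pass through a stage in which they express doublecortin and transcription factors of the SOX and NEUROD families. In bulk tissue, fewer cells of a type and less RNA per cell cannot be told apart, which holds for every result given here.

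Libraries held 15234793 to 26355712 counts, except mPIA female 3 with 44362539. Levels are given in CPM, a gene's count relative to the TMM-scaled total of its library, which can be compared between libraries but not between genes, since they are not divided by gene length. The hippocampal label was borne out by its markers: Prox1, a transcription factor of dentate granule cells, lay between 60.7 and 128 CPM over all libraries, and Wfs1, a CA1 marker, between 69.3 and 237 CPM. Markers of adjoining tissue varied. The summed level of 16 choroid plexus genes ran from 27.5 to 4829 CPM in NBC males, and that of 20 meningeal genes from 318 to 1249 CPM in the same 3 libraries. Sample codes also ran with the groups: all 8 NBC and mPIA females carry codes made of digits, all 11 NBC males and sPIA pups carry codes that start with P, and all 4 mPIA males carry codes that start with M. The labels do not say what the codes stand for. Within groups, NBC females 1 and 2 share the prefix 86, as do mPIA females 1 and 2. Across groups, P14 recurs in NBC male 3, sPIA male 4 and sPIA female 4. P13 is shared by NBC male 2 and sPIA female 3, and P11 by sPIA male 3 and sPIA female 2. Whether libraries with a shared prefix are independent is not known, and the main test treats them as such. Of the comparisons between groups, those within 1 kind of code were mPIA with NBC in females and sPIA with NBC in males. In the others, code kind and group cannot be told apart. A further number that ends the codes was lower in all sPIA libraries than in all other libraries. Every comparison of sPIA with another group therefore crosses that number, also the one with NBC males.

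Among the members, the most reads fell on the immature-neuron gene Dcx (119 to 202 CPM) and on the cyclin gene Ccnd2 (126 to 200.3 CPM). Such a ranking is one of reads, not of transcripts, since gene length enters it. The smallest counts in a library were those of the mitotic gene Bub1 and of the cyclin gene Ccnb1. Bub1 ran from 0.314 to 2.43 CPM and Ccnb1 from 0.231 to 3.32 CPM, with as few as 6 and 5 counts in a library. With an SE of 0.40 for Ccnb1 and 0.35 for Bub1 between NBC and sPIA females, a log2 change of 0.42, as measured there for Ccnd2, was not detectable for these genes.

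Promoter sequences were read for the members from RefSeq (GRCm38.p6), and 25 of 31 were matched; Ccnd1, Ccnd2, Mcm4, Ccna2, Aurkb and Igfbpl1 are not in the table used here. Cell-cycle genes are known to be controlled through E2F sites, which act in late G1, and through the cell cycle homology region (CHR) together with CCAAT boxes, which act in G2 and M. Motif letters were searched on both strands in the 250 bases before the start, with overlapping matches counted. The E2F letters TTTCCCGC, TTTCGCGC, TTTGCCGC and TTTGGCGC were found in 4 of 25 members (Cdk1, Mcm5, Mcm6 and Mcm7), against 1.9% of 32851 promoters. The CHR letters TTTGAA and TTTAAA were found in 12 of 25 members, against 25.2% of all promoters, and CCAAT in 21 of 25, against 33.8%. The hypoxia response letters ACGTG and GCGTG were found in 15 of 25, against 38.6%. Members were counted by gene, with a match in any of its promoters, while the shares are over single promoters. These units differ in favour of the members, since Mcm7 and Dcx have more than a single promoter. A match is a description of the letters only. The 250 bases before the start are shown 5′ to 3′ on the gene's strand for Kif11, Top2a and Cenpf, mitotic genes that were higher in sPIA than in mPIA males, for Sox11, a young-neuron gene that was higher in sPIA than in NBC females, and for Mcm6 as a replication gene with E2F letters; capitals mark E2F, CHR and CCAAT letters on either strand.
Kif11, chr19:37376132-37376381, plus strand: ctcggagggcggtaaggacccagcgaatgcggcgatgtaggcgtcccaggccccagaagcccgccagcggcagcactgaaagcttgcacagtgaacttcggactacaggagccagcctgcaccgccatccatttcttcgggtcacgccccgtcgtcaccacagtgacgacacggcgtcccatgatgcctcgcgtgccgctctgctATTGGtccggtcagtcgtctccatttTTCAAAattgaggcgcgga
Top2a, chr11:99024190-99024439, minus strand: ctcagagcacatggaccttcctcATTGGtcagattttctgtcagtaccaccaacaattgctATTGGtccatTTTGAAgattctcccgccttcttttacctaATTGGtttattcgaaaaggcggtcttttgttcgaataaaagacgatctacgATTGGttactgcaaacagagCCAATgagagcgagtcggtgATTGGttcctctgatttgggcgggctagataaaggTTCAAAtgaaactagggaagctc
Cenpf, chr1:189688087-189688336, minus strand: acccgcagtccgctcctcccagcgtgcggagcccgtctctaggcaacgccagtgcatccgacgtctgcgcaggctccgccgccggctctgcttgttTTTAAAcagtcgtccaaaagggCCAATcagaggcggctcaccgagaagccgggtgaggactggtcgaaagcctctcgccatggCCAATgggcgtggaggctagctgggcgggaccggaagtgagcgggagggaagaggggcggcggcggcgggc
Sox11, chr12:27342719-27342968, minus strand: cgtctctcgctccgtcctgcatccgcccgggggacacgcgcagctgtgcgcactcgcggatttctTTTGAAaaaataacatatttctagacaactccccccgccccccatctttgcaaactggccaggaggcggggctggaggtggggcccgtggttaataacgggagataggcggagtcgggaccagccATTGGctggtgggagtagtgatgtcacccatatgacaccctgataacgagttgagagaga
Mcm6, chr1:128359706-128359955, minus strand: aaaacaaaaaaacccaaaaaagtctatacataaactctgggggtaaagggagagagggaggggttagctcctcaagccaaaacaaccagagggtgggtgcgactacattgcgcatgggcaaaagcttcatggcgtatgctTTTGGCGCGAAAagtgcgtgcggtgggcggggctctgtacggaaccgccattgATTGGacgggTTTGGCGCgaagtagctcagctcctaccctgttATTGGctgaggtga
Kif11 holds 1 CHR and 1 CCAAT match, with the CHR letters starting 19 bases before the start. Top2a holds 2 CHR and 6 CCAAT matches, and Cenpf 1 CHR and 2 CCAAT matches. Sox11 holds 1 of each. Mcm6 holds 3 E2F and 2 CCAAT matches, of which a pair of E2F matches overlap on opposite strands. Neurod1 and Nes hold none of these 3 motifs in the window searched.

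In females, severe bleeding was accompanied by higher levels of 5 of the 31 members, among them 1 of the 4 stem and progenitor genes and 2 of the 5 young-neuron genes. Compared with NBC females, sPIA females had higher Neurod1 (1.76-fold), Sox11 (1.59-fold), Nes (1.504-fold), Ccnd2 (1.34-fold) and Pcna (1.26-fold), and none of the 31 members was called lower. A gene was called when its p-value, adjusted by the Benjamini-Hochberg method over all 15475 genes, was below 0.05 in edgeR's quasi-likelihood test. The 5 called members compare with 8.12% of all genes tested that were called higher. The direction was shared more widely than the calls: 25 of 31 members had a positive log2 change, with a median of 0.25, against a median of 0.00 over all genes tested. For 6 members the lowest sPIA female lay above the highest NBC female, which was so for 9.85% of all genes tested.

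Neurod1 encodes a basic helix-loop-helix factor that acts in the differentiation and survival of granule neurons; the gene lies at chr2:79452521-79456751 on the minus strand (mm10). It was at 38.8, 35.9, 40.1 and 46.8 CPM in NBC females and at 37.7, 37.8, 38.4 and 44.5 CPM in mPIA females. In sPIA females it was at 60.1, 65.4, 85.1 and 72.9 CPM. Every sPIA female was above all 8 other females. The log2 change against NBC was 0.81 ± 0.12 (SE, n = 4 and 4; edgeR adjusted p = 0.000144) and against mPIA 0.84 ± 0.12 (edgeR adjusted p = 6.61e-05). Neurod1 lies within the span of Cerkl on the same strand, and Cerkl itself was at 0.599 to 2.36 CPM in all libraries.

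Sox11 (chr12:27334264-27342574, minus strand) encodes an SRY-related factor of newborn neurons. Its level was 45.4, 32.2, 46.4 and 57.5 CPM in NBC females and 65.4, 72.9, 81.9 and 67.0 CPM in sPIA females. mPIA females held a narrow range, at 46.1, 45.4, 48.5 and 46.2 CPM. The severe group did not overlap with either of the other female groups. Against NBC, the log2 change was 0.67 ± 0.13 (SE, n = 4 and 4; edgeR adjusted p = 0.00131), and against mPIA it was 0.63 ± 0.13 (edgeR adjusted p = 0.00163).

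Nes (chr3:87971078-87980451, plus strand) encodes nestin, an intermediate filament of neural stem and progenitor cells and also of other growing cells such as those of vessels. NBC females were at 21.5, 21.2, 19.5 and 19.7 CPM and sPIA females at 27.4, 26.5, 36.5 and 32.9 CPM. In mPIA females the level was 21.9, 16.9, 19.6 and 17.3 CPM. Again no sPIA female overlapped with the other females. The log2 change was 0.59 ± 0.13 against NBC (SE, n = 4 and 4; edgeR adjusted p = 0.00341) and 0.70 ± 0.13 against mPIA (edgeR adjusted p = 0.000628).

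Ccnd2 (chr6:127125162-127152193, minus strand) encodes cyclin D2, the D-type cyclin used by dividing progenitors of the adult dentate gyrus. It was at 139, 152, 138 and 137 CPM in NBC females and at 127, 126, 141 and 134 CPM in mPIA females. In sPIA females it reached 200.3, 177, 198 and 181 CPM, with no overlap. The log2 change was small in its error, 0.42 ± 0.07 against NBC (SE, n = 4 and 4; edgeR adjusted p = 0.000455) and 0.51 ± 0.07 against mPIA (edgeR adjusted p = 4.21e-05). These 4 genes, Neurod1, Sox11, Nes and Ccnd2, kept both calls in all 8 fits that left out a single library and in all 8 other alternatives. Ccnd1, the other D-type cyclin gene, had a log2 change of 0.35 ± 0.13 against NBC that missed the threshold (edgeR adjusted p = 0.0733), with 28.6 to 41.4 CPM in NBC and 39.1 to 57.5 CPM in sPIA females.

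Pcna, the sliding clamp of DNA polymerase, was called in sPIA females but less securely. It was at 26.7, 24.6, 23.8 and 27.2 CPM in NBC females and at 26.2, 35.7, 29.0 and 37.8 CPM in sPIA females, so the groups overlapped. Its log2 change was 0.33 ± 0.11 (SE, n = 4 and 4; edgeR adjusted p = 0.0344). The call was lost when NBC female 1, 2 or 3 or sPIA female 2 or 4 was left out, with limma-voom, and when a trend with GC content and length was removed (0.17, edgeR adjusted p = 0.376). The other replication genes did not pass. Mcm4 was nearest, at 0.25 ± 0.11 (edgeR adjusted p = 0.141), and Mcm6, Mcm3, Mcm2, Mcm7 and Mcm5, further subunits of the replicative helicase, ranged from 0.27 down to -0.12. Of the 7 replication genes 1 was called, and their median log2 change was 0.13. Pcna has 2 named pseudogenes in the annotation, so reads shared with them could have been counted to either.

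Mitotic genes were not called in sPIA females. Top2a, the topoisomerase that untangles replicated chromosomes, was at 10.8, 8.09, 11.37 and 10.7 CPM in NBC and at 11.51, 17.8, 16.1 and 12.6 CPM in sPIA females. These 2 groups touched without overlap, and the log2 change of 0.51 ± 0.20 (SE, n = 4 and 4) missed the threshold (edgeR adjusted p = 0.0845). For Mki67, the proliferation antigen Ki-67, the change was 0.28 ± 0.23 (edgeR adjusted p = 0.472), with sPIA female 1 at 10.1 CPM and the other 3 between 14.7 and 17.9 CPM. Cdk1 (-0.06 ± 0.37), Ccnb1 (-0.20 ± 0.40) and Birc5 (-0.06 ± 0.25), which act in mitosis, had changes smaller than their errors. The median of the 8 mitotic members was 0.25 and that of the 3 cyclin and kinase genes of S to M phase (Ccna2, Ccnb1, Cdk1) was -0.06. Thus 7 of 8 mitotic members were positive without 1 call, and their median equalled that of all 31 members (0.25). Of the 5 called members, 3 belong to progenitors or young neurons (Nes, Sox11, Neurod1), and the others, Ccnd2 and Pcna, to the cell cycle. A difference between these roles was not tested.

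Other genes of the stem-cell group moved unequally. Sox2, a pluripotency and neural stem-cell factor also found in astrocytes, was at 28.3, 32.7, 36.99 and 32.6 CPM in NBC females and at 45.6, 40.6, 47.5 and 40.8 CPM in sPIA females. Although the groups did not overlap, the log2 change of 0.42 ± 0.16 (SE, n = 4 and 4) missed the threshold (edgeR adjusted p = 0.087). Hes5, an effector of Notch signalling in stem cells, had a negative change of -0.46 ± 0.26 (edgeR adjusted p = 0.247). For Eomes, the T-box factor of intermediate progenitors, the change was 0.39 ± 0.32 (edgeR adjusted p = 0.452). Among the young-neuron genes, Dcx, a microtubule-binding protein of migrating neurons, was at 199, 202 and 202 CPM in 3 sPIA females but at 129 CPM in sPIA female 1. Its log2 change was 0.36 ± 0.14 (edgeR adjusted p = 0.0832). Igfbpl1 was at 0.39 ± 0.17 (edgeR adjusted p = 0.136), while Sox4, a close relative of Sox11, was at 0.06 ± 0.11 (edgeR adjusted p = 0.756).

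**Figure D1:**
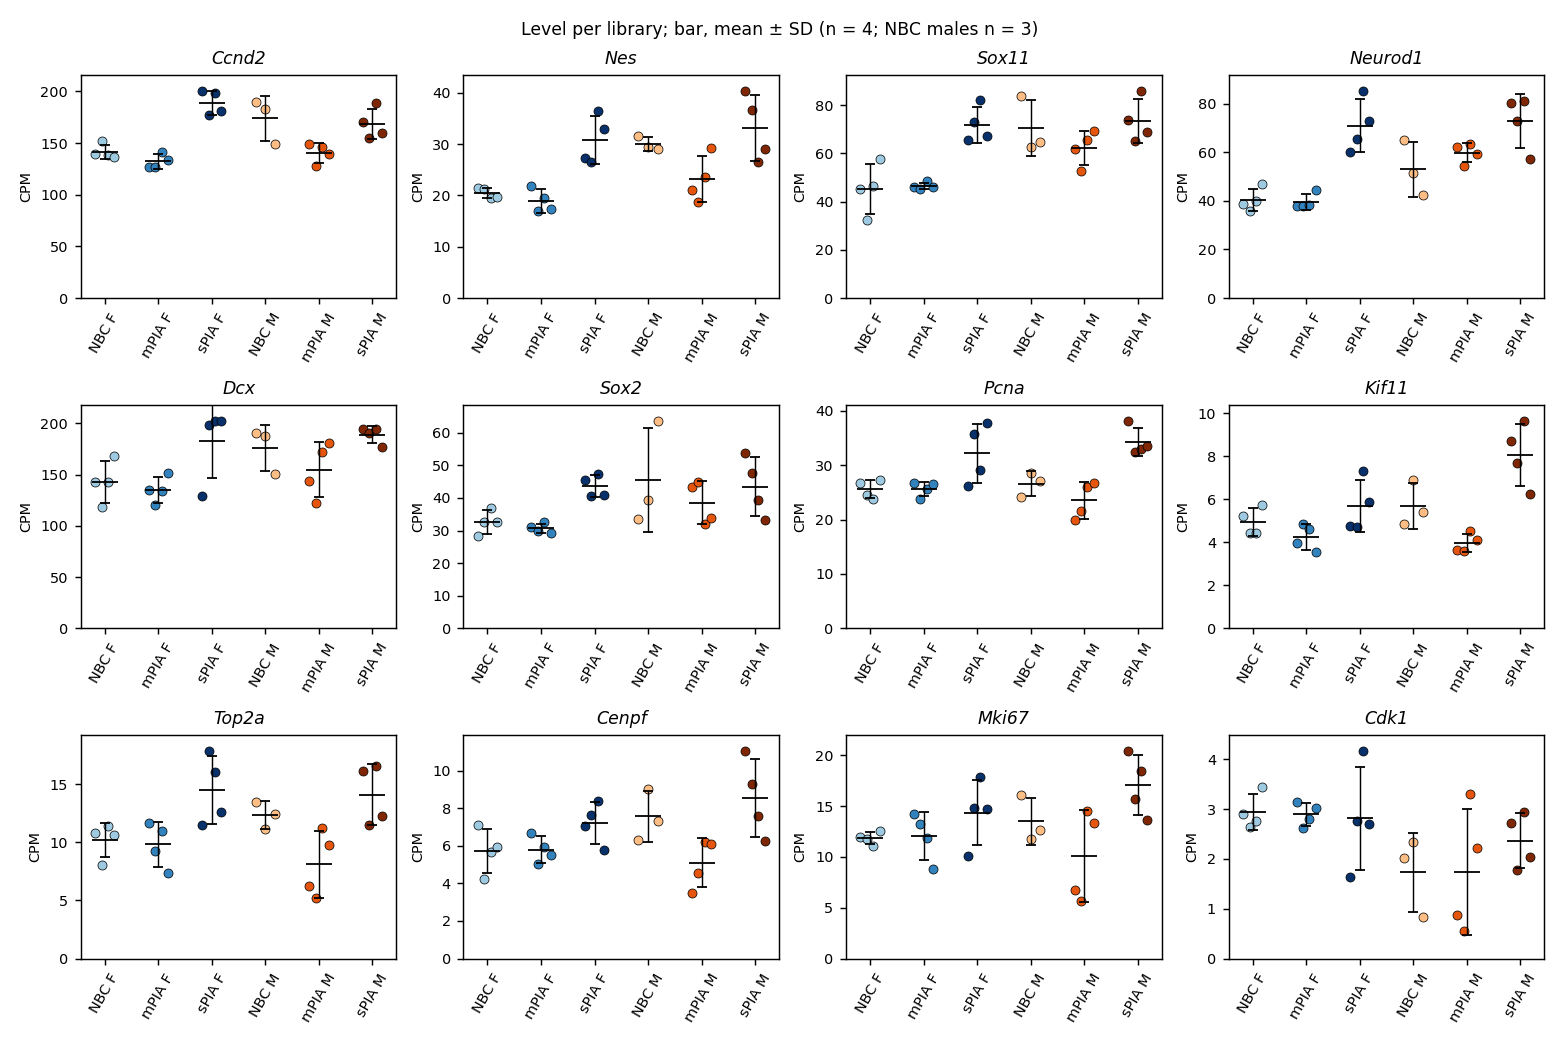
Level in CPM (y axis from 0) of 12 members in each library of the 6 groups (x axis; F, female; M, male), with bars for the mean ± SD of 4 libraries (3 in NBC males). Neurod1, Sox11, Nes and Ccnd2 of sPIA females lie above all other females, and 2 of the 4 mPIA males are low for Top2a, Mki67 and Cdk1.

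The comparison of sPIA with mPIA females shares the sPIA libraries with the one above. It called 7 members, all higher, where 8.67% of all genes tested were called higher: Neurod1, Sox11, Nes, Ccnd2, Pcna, Sox2 and Dcx. Sox2 was at 30.98, 29.9, 32.6 and 29.1 CPM in mPIA females, and its log2 change was 0.51 ± 0.16 (SE, n = 4 and 4; edgeR adjusted p = 0.0364). Dcx was at 135, 121, 134 and 152 CPM, which overlaps with sPIA female 1, and its change was 0.44 ± 0.14 (edgeR adjusted p = 0.0337). Pcna was at 0.33 ± 0.11 (edgeR adjusted p = 0.0348). All 3 of these calls depended on single libraries, and those of Sox2 and Dcx were also lost without the low-count filter (edgeR adjusted p = 0.0588 and 0.0582). The Pcna call was lost without mPIA female 1, 2 or 3 or sPIA female 2 or 4, the Sox2 call without any 1 of the 4 mPIA females or sPIA female 1 or 3, and the Dcx call without mPIA female 1, 2 or 3 or sPIA female 2, 3 or 4. With the GC and length trend removed, only Neurod1, Sox11, Nes and Ccnd2 of the 7 stayed called. The reads of Sox2 lie within Sox2ot on the same strand, which was itself at 19.3 to 55.6 CPM, so the split of reads between them is uncertain.

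Markers of other cells moved in the same libraries. Of all 15475 genes tested, 1256 were called higher and 1216 lower in sPIA than in NBC females. The summed level of 15 genes of deep cortical neurons was 727 to 832 CPM in sPIA females, 944 to 1020.5 CPM in NBC females and 929 to 1036 CPM in mPIA females, with 4 of the 15 called lower and none called higher against NBC. Fezf2, among these 4, was at 19.6 to 27.2 CPM in sPIA and 44.5 to 54.1 CPM in NBC females. The others were Tshz2 (mean 12.4 CPM in sPIA and 71.1 CPM in NBC females), Cplx3 (1.29 and 6.08 CPM) and Crym (301 and 398 CPM). The sum of 11 dentate granule genes was 505 to 664 CPM in sPIA and 435 to 521 CPM in NBC females, with all 11 changes positive (median 0.22) and 1 called. For 14 astrocyte genes, a cell type that also expresses Sox2, the sum was 5804 to 7299 CPM in sPIA and 5664 to 5890 CPM in NBC females, with 3 called higher and 1 lower. Endothelial genes also moved: the sum of 14 was 434 to 498 CPM in sPIA females, above the 379 to 407 CPM of NBC females, and 402 to 453 CPM in mPIA females. Of these 14 genes 3 were called higher against NBC and none lower, namely the receptor genes Kdr (0.57 ± 0.08), Flt1 (0.57 ± 0.13) and Eng (0.45 ± 0.10), and growing vessels also express Nes. Against mPIA females, 15 of 16 choroid plexus genes (median 1.62) and 17 of 18 ependymal genes (median 0.61) were positive, with 0 and 1 called. The part of these cells in the members' changes was not tested. With a covariate for the choroid plexus score, all 5 calls against NBC were kept; against mPIA 6 of the 7 were kept, Pcna was lost (edgeR adjusted p = 0.0505) and Mcm4 was added.

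Wider lists of the same pathways, which hold none of the members, gave a mixed picture in sPIA females against NBC females. The counts below stand beside 1256 of all 15475 genes tested that were called higher there and 1216 called lower. Of 40 genes of the G1 and S phases, 2 were called higher and none lower, and 20 of 40 were positive; the 2 were Rb1, the retinoblastoma gene that restrains entry into S phase (0.39 ± 0.08), and Usp1, a deubiquitinase of DNA repair (0.43 ± 0.10). Of 49 tested genes of G2 and M, none was called higher and 1 was called lower, Cdc25b, a phosphatase that activates mitotic kinase (-0.51 ± 0.11), with 31 of 49 positive. Inhibitors of the cycle had 3 of 19 called higher: Cdkn1b, which encodes p27 (0.52 ± 0.10), Trp53inp1 (0.51 ± 0.11) and Ccng1 (0.31 ± 0.07), the last pair known as targets of p53. Of 40 neural progenitor genes 6 were called higher and 2 lower, and the 5 with the smallest p were Sox9, Emx2, Slc1a3, Sox1 and Id4, with log2 changes from 0.30 to 0.76. Several of these, such as Sox9 and Slc1a3, are also genes of mature astrocytes. The 37 genes of immature neurons were called in both directions, 5 higher and 5 lower: Bhlhe22 (0.60 ± 0.10) and Elavl2 (0.40 ± 0.08) were higher, and Marcksl1 (-0.39 ± 0.08), Tubb3 (-0.46 ± 0.10) and Stmn1 (-0.58 ± 0.13), genes of the growing cytoskeleton, were lower. Their median log2 change was -0.04. So the rise of Neurod1 and Sox11 was not shared by the list of immature neurons as a whole.

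In males, the comparison of sPIA with NBC called none of the 31 members in edgeR's test, where 0.194% of all genes tested were called in either direction; DESeq2 and limma-voom called none of them either. At an unadjusted p below 0.05 there were 6 members, against 12.1% of all genes: Neurod1, Pcna, Kif11 and Bub1 higher, and Mcm2 and Tyms lower. Neurod1 had 64.8, 51.5 and 42.3 CPM in the NBC and 80.2, 72.8, 81.1 and 57.0 CPM in the sPIA males, a log2 change of 0.46 ± 0.13 (SE, n = 3 and 4; edgeR adjusted p = 0.149). Pcna had 24.1, 28.6 and 27.2 CPM in the NBC and 38.1, 32.4, 33.0 and 33.5 CPM in the sPIA males, without overlap, a change of 0.36 ± 0.12 (edgeR adjusted p = 0.185). Pcna and Bub1 were the 2 members that lay higher in sPIA males without overlap, against 3.21% of all genes tested. All 8 mitotic members were positive, with a median of 0.38 and changes from 0.11 (Birc5) to 0.84 (Bub1), and 25 of 31 members were positive in all. The Bub1 value rests on low counts and on NBC male 4, where it had 6 counts. Mcm2 had a log2 change of -0.53 ± 0.19 (edgeR adjusted p = 0.24), and Tyms, thymidylate synthase, -0.48 ± 0.23 (edgeR adjusted p = 0.398). Ccnd2, called in females, had 190.02, 183 and 149 CPM in the NBC and 170.4, 155, 189 and 159.9 CPM in the sPIA males, and its change was -0.05 ± 0.08 (edgeR adjusted p = 0.864).

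The difference between the sexes in the sPIA effect was tested as an interaction. It was called for 1 member, Ccnd2, where 0.601% of all genes tested were called with a higher effect in females: the effect was 0.46 ± 0.11 higher on the log2 scale in females than in males (edgeR adjusted p = 0.038). The call was lost in 8 of 15 fits that left out a single library, namely without NBC male 2 or 3, NBC female 1, 3 or 4, sPIA male 4, or sPIA female 1 or 3 (largest adjusted p = 0.0941). Sox11 had a sex difference of 0.61 ± 0.19 that missed the threshold (edgeR adjusted p = 0.109), as did Nes at 0.45 ± 0.19 (edgeR adjusted p = 0.24) and Neurod1 at 0.35 ± 0.18 (edgeR adjusted p = 0.333). For these 3 genes a difference between the sexes was thus not shown. The Ccnd2 call was also lost with only the compared groups in the fit (edgeR adjusted p = 0.101). In the wider lists, Sox9 (0.88 ± 0.19), Trp53inp1 (0.70 ± 0.15) and Cdc25b (-0.63 ± 0.16) were called in the same interaction.

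The non-bled groups themselves differed. Sox11, Nes and Ccnd2 were lower in NBC females than in NBC males, by -0.64 ± 0.14, -0.55 ± 0.14 and -0.30 ± 0.08 on the log2 scale (edgeR adjusted p = 0.00674, 0.0157 and 0.0192), where 5.49% of all genes tested were called lower. Sox11 was at 83.8, 62.7 and 64.7 CPM in NBC males, all above the highest NBC female at 57.5 CPM. Nes was at 31.5, 29.5 and 29.1 CPM in NBC males, above the highest NBC female at 21.5 CPM. These were the 2 of 31 members lower in NBC females without overlap, which was so for 1543 of all 15475 genes tested. The levels of sPIA females and NBC males overlapped: Sox11 had a mean of 71.8 ± 7.5 CPM (SD, n = 4) in sPIA females and 70.4 ± 12 CPM (SD, n = 3) in NBC males, and Nes 30.8 ± 4.7 against 30.0 ± 1.3 CPM. NBC females enter this comparison and that of sPIA with NBC females alike, so both share any deviation of those 4 libraries. The Ccnd2 call between the NBC groups was lost without NBC male 2 or 3 or NBC female 1, and with only the NBC libraries in the fit Sox11 (edgeR adjusted p = 0.0591) and Ccnd2 (edgeR adjusted p = 0.0674) missed the threshold. Markers of other cells moved in the same comparison. All 11 dentate granule genes were lower in value in NBC females (median -0.38, 1 called), with sums of 435 to 521 CPM against 567 to 649 CPM in NBC males. All 20 meningeal genes (median -1.05, 3 called) and all 16 choroid plexus genes (median -2.30, 1 called) had negative changes too. Of 14 astrocyte genes 3 were called lower, with sums of 5664 to 5890 CPM against 6665 to 7664 CPM. With a covariate for the choroid plexus score the 3 members kept their calls; the part of the other cells was not tested.

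Levels also differed by the kind of sample code. Sox11 was at 32.2 to 57.5 CPM in the 8 libraries with codes of digits, at 52.8 to 69.4 CPM in the 4 with M codes and at 62.7 to 85.8 CPM in the 11 with P codes. Nes was at 16.9 to 21.9 CPM with codes of digits, at 18.8 to 29.2 CPM with M codes and at 26.5 to 40.3 CPM with P codes. For Sox11 and Nes, codes of digits and P codes thus did not overlap. Neurod1 did overlap between these code kinds (35.9 to 46.8 against 42.3 to 85.1 CPM), as did Ccnd2 (126 to 152 against 149 to 200.3 CPM). How many of all genes separate by code kind was not counted. In the comparisons within 1 kind of code, mPIA with NBC females and sPIA with NBC males, 0 members were called. Of all genes tested, 0.00646% and 0.194% were called there in either direction, so few calls were made among any genes. The comparison of sPIA with NBC males still crosses the number that ends the codes. All called members come from comparisons that cross code kinds, where code and group cannot be told apart.

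**Figure D2:**
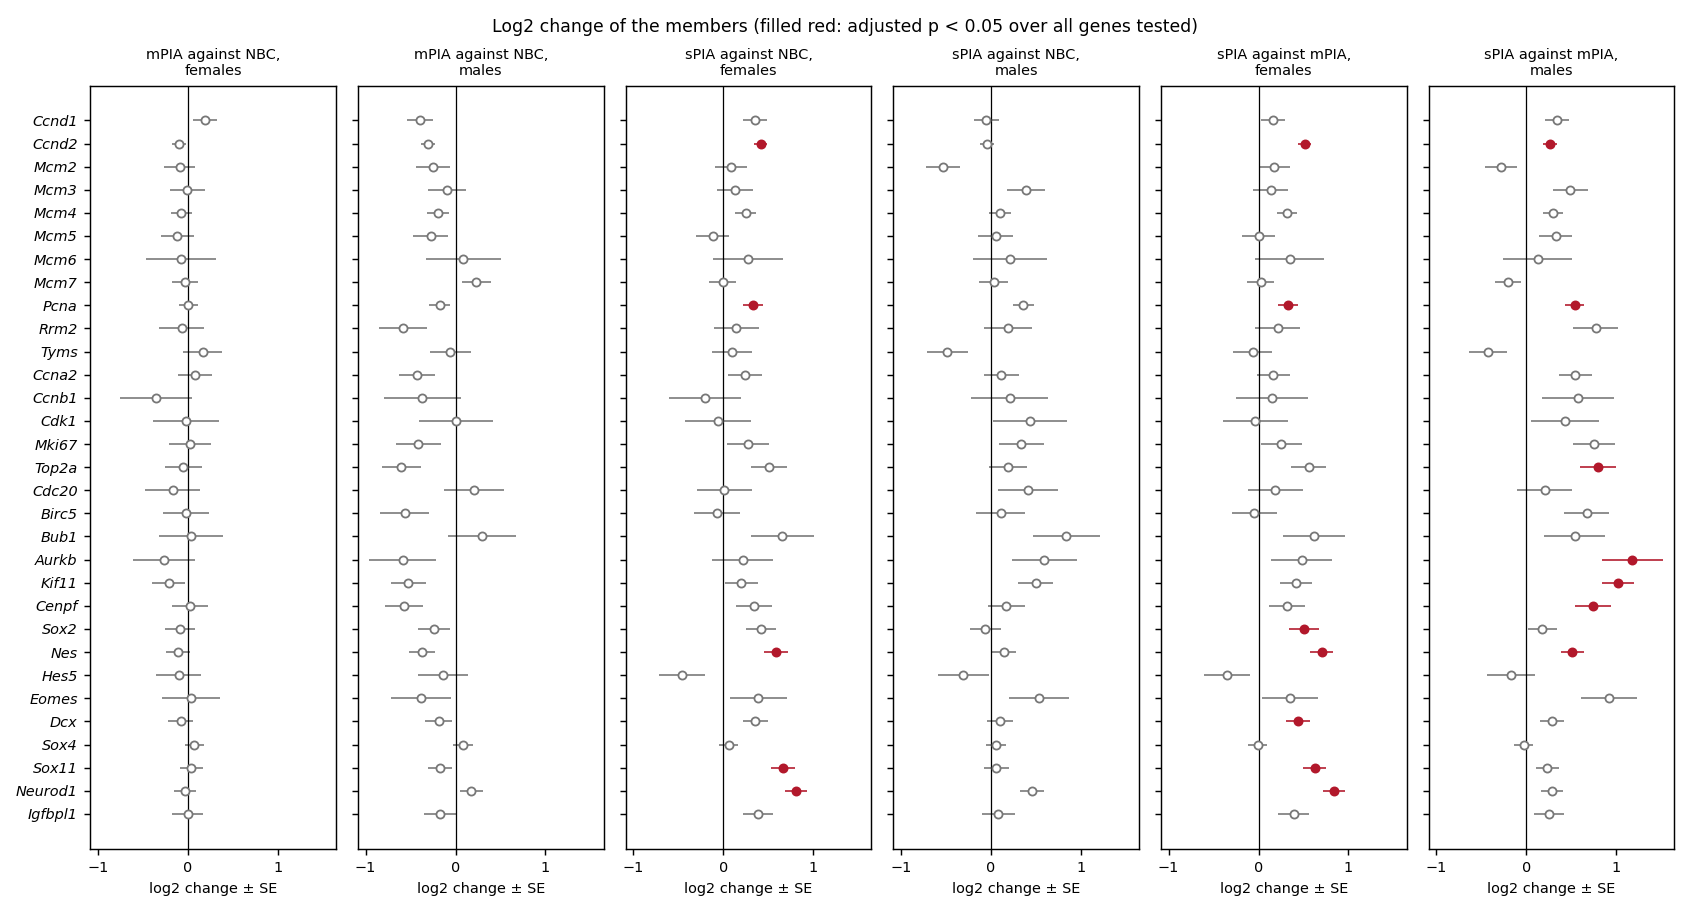
Log2 change ± SE (x axis) of each of the 31 members (rows, grouped by role from D-type cyclins at the top to immature-neuron genes at the bottom) in 6 comparisons (panels); filled red points have an edgeR adjusted p below 0.05 over all genes tested. The first panel, mPIA against NBC in females, holds values near 0, and the panels of sPIA females show the called progenitor and young-neuron genes.

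Moderate anemia in females was accompanied by no detectable change in the module. Of 31 members none was called in edgeR's test, where 0.00646% of all genes tested were called, and none reached an unadjusted p below 0.05, against 0.355% of all genes. DESeq2 and limma-voom called none either. Without any effect, a share near 0.05 of all genes would have an unadjusted p below 0.05, so p-values ran high in this comparison. Same-numbered libraries of these groups share a code prefix, which the main test ignores. With code prefix as a block, 0 members and 6 genes in all were called. The missing calls thus do not show that the module was unchanged. The median log2 change was -0.03, with changes from -0.35 ± 0.40 for Ccnb1 to 0.19 ± 0.13 for Ccnd1, and 10 of 31 were positive. For Ccnd2, the member with the smallest error, the change was -0.10 ± 0.07 (SE, n = 4 and 4).

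In males, mPIA against NBC gave negative values for most members without a call, and more so in some libraries than in others. None of 31 passed in edgeR's test, where 0.653% of all genes tested were called; DESeq2 called 1 and limma-voom none. At an unadjusted p below 0.05 there were 9 members, all lower: Ccnd1, Ccnd2, Rrm2, Ccna2, Top2a, Birc5, Kif11, Cenpf and Nes. Of all 15475 genes tested, 16% were below that p in either direction, and 1225 were below it and lower. The median over the 31 was -0.24, with 24 negative, against 0.01 over all genes tested. Ccnd2 was nearest to the threshold, at 149, 127, 146 and 139.5 CPM in mPIA males and a log2 change of -0.31 ± 0.08 (SE, n = 4 and 3; edgeR adjusted p = 0.0602). It is the member that DESeq2 called. Top2a had the largest negative change, -0.60 ± 0.21 (edgeR adjusted p = 0.159). The 2 non-bled males with high choroid plexus markers, 3 and 4, also hold the high meningeal sums, and all 20 meningeal and 16 choroid plexus genes had negative changes in this comparison. Of 18 ependymal genes 17 were negative and 6 called lower. Adjusted for the score of choroid plexus genes, the members' median was -0.33 with no call. Without mPIA males 1 and 2 (codes M36 and M37), a setting chosen after seeing the data, the median was -0.06, with 12 of 31 positive and 3 members at an unadjusted p below 0.05. Without mPIA males 3 and 4 (codes M90 and M91) it was -0.41, with 4 positive and 17 members at that p, and neither setting called a member.

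The difference between the sexes in the mPIA effect called none of the 31 members, where 0% of all genes tested were called. At an unadjusted p below 0.05 there was 1 member, Ccnd1 (0.58 ± 0.19; edgeR adjusted p = 0.659), against 7.13% of all genes; DESeq2 and limma-voom called none.

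Between sPIA and mPIA males, mitotic genes made up 4 of the called members. The comparison called 7 members, all higher, where 2.13% of all genes tested were called higher: Kif11 (2.03-fold), Aurkb (2.27-fold), Top2a (1.74-fold), Cenpf (1.67-fold), Pcna (1.45-fold), Nes (1.43-fold) and Ccnd2 (1.20-fold). The pair of nucleotide synthesis genes parted: Rrm2 had a change of 0.77 ± 0.25 (edgeR adjusted p = 0.0655), while Tyms had -0.42 ± 0.22 (edgeR adjusted p = 0.244), with all 4 sPIA males below all mPIA males. For 8 members the lowest sPIA male lay above the highest mPIA male, which was so for 4.85% of all genes tested. The median log2 change was 0.35 over the 31 members and 0.75 over the 8 mitotic genes, 4 of which were called.

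Kif11 (chr19:37376403-37421859, plus strand) encodes the kinesin motor that separates the spindle poles. It was at 3.65, 3.60, 4.51 and 4.11 CPM in mPIA males and at 8.71, 7.69, 9.63 and 6.27 CPM in sPIA males. The groups were well apart, and the log2 change was 1.02 ± 0.18 (SE, n = 4 and 4; edgeR adjusted p = 0.00305). Pcna was at 19.8, 21.5, 26.0 and 26.8 CPM in mPIA males, below all 4 sPIA males given above, with a change of 0.54 ± 0.11 (edgeR adjusted p = 0.00583). Kif11 and Pcna were the 2 of the 7 that kept their calls in all 8 fits that left out a single library.

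Top2a was at 6.22, 5.18, 11.28 and 9.79 CPM in mPIA males and at 16.1, 11.54, 16.6 and 12.3 CPM in sPIA males, a change of 0.80 ± 0.20 (SE, n = 4 and 4; edgeR adjusted p = 0.0249). Cenpf, a kinetochore protein, was at 3.50, 4.57, 6.23 and 6.10 CPM and at 11.02, 9.26, 7.601 and 6.27 CPM, a change of 0.74 ± 0.20 (edgeR adjusted p = 0.0294). Both genes did not overlap between the groups, but mPIA males 3 and 4 were close to the lowest sPIA males. Aurkb, a kinase of chromosome segregation, was at 0.668, 0.508, 1.59 and 0.993 CPM in mPIA and at 2.30, 2.63, 2.38 and 1.29 CPM in sPIA males, a change of 1.18 ± 0.34 (edgeR adjusted p = 0.0434) that rests on 11 to 38 counts per mPIA library. Nes was at 21.1, 18.8, 23.7 and 29.2 CPM in mPIA and at 40.3, 36.6, 26.5 and 29.0 CPM in sPIA males, with a change of 0.51 ± 0.13 (edgeR adjusted p = 0.0251). The change of Ccnd2 was 0.26 ± 0.07 (edgeR adjusted p = 0.0377).

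These 5 calls depended on single libraries. Without mPIA male 1 or 2, or sPIA male 1, all 5 were lost. Further losses followed the removal of sPIA male 3 for Top2a, Ccnd2 and Aurkb, of sPIA male 2 for Cenpf, Nes and Aurkb, and of mPIA male 4 for Ccnd2 and Aurkb. Removing the trend with GC content and length ended the calls of Top2a, Cenpf and Aurkb, and with only the sPIA and mPIA males in the fit all 5 were lost. The Cenpf call was also lost with a covariate for the choroid plexus score (edgeR adjusted p = 0.0503).

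Most cell-cycle members split the mPIA males along their sample codes, a grouping made after seeing the data. Both libraries of codes M36 and M37 were below both of codes M90 and M91 for 23 of 31 members, which was so for 16.8% of all genes tested, and above them for 2, Sox2 and Hes5. All 8 mitotic members, all 3 cyclin and kinase genes of S to M phase and 6 of 7 replication genes were among the 23. Ccnd1, Ccnd2, Mcm6, Tyms, Sox4 and Neurod1 did not split this way. Mki67 was at 6.79 and 5.64 CPM in replicates 1 and 2 (codes M36 and M37) and at 14.5 and 13.4 CPM in replicates 3 and 4 (codes M90 and M91). Cdk1, the mitotic kinase, was at 0.874 and 0.555 CPM in the first pair and at 3.30 and 2.22 CPM in the second. Rrm2, a subunit of ribonucleotide reductase, was at 4.32 and 2.31 CPM against 4.76 and 5.96 CPM. Ccnb1, cyclin B1, had 5 counts in mPIA male 2, or 0.231 CPM, against 1.75 CPM in each of replicates 3 and 4. Eomes was at 3.29 and 1.71 CPM against 5.10 and 4.92 CPM. Over the 23 libraries, mPIA male 2 was the lowest for 12 of the 31 members and mPIA male 1 for 5, while these libraries were the lowest for 7.97% and 2.97% of all genes tested. Without the M36 and M37 libraries, a setting chosen after seeing the data, 0 members and 37 genes in all were called between sPIA and mPIA males, with a members' median of 0.25; Kif11 then had a change of 0.91 (edgeR adjusted p = 0.0844). Without the M90 and M91 libraries 10 members and 324 genes in all were called, with a median of 0.68; Ccnd2 was no longer among them.

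**Figure D3:**
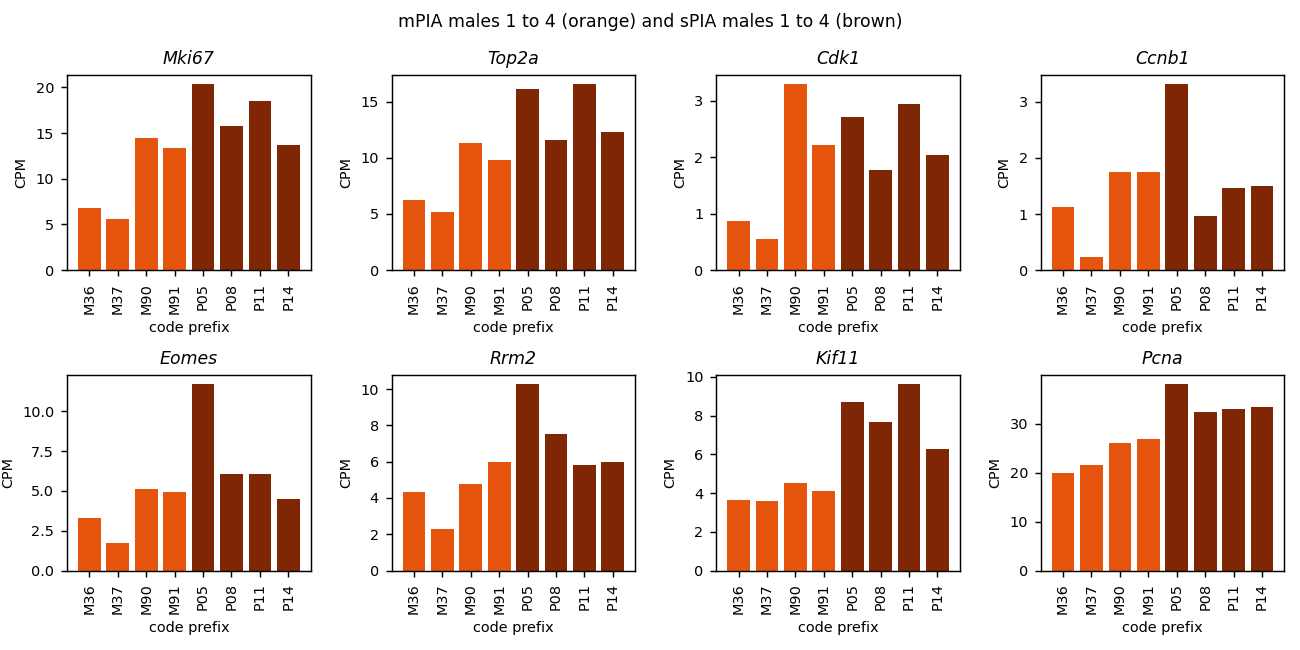
Level in CPM (bars from 0, 1 per library) of 8 members in mPIA males 1 to 4 (orange) and sPIA males 1 to 4 (brown), labelled by the prefix of the sample code. Mki67, Top2a, Cdk1, Ccnb1 and Eomes are lower in the M36 and M37 libraries than in M90 and M91, whereas Kif11 differs little among the 4 mPIA males.

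At the other end, sPIA male 1 was the highest library for 9 of 31 members (9.57% of all genes tested) and sPIA female 3 for 7 (5.12%). In sPIA male 1, Eomes reached 11.7 CPM, Rrm2 10.3 CPM and Ccnb1 3.32 CPM, while Hes5 was at its lowest of all libraries, 3.18 CPM. NBC male 4, the library with the highest choroid plexus sum, was the highest for Sox2 (63.5 CPM) and Ccna2 (12.1 CPM) and the lowest for Bub1 (0.314 CPM). Mcm6 had no pattern by group: it ran from 5.45 CPM in mPIA male 2 to 26.4 CPM in sPIA female 3, and was at 6.39 CPM in NBC female 3 beside 14.6 to 18.3 CPM in the other NBC females. Among mPIA males, the sum of 50 further genes of G2 and M, none of them a member, was 258 and 266 CPM in the M36 and M37 libraries and 312 and 307 CPM in M90 and M91. Sums of 37 immature-neuron genes split the same way, at 7082 and 7185 against 7947 and 8901 CPM, as did those of 40 G1 and S genes (540 and 528 against 552 and 557 CPM) and of 12 CA pyramidal genes (1376 and 1395 against 1462 and 1423 CPM). Astrocyte sums split the other way, at 7489 and 6503 against 6490 and 6348 CPM. Choroid plexus sums were 39.9 and 54.4 against 61.8 and 24.6 CPM, and those of oligodendrocyte precursors, which also divide at this age, 1301 and 1099.5 against 1257 and 1233 CPM, so neither followed the codes. The part of other cells in the split was not tested.

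**Figure D4:**
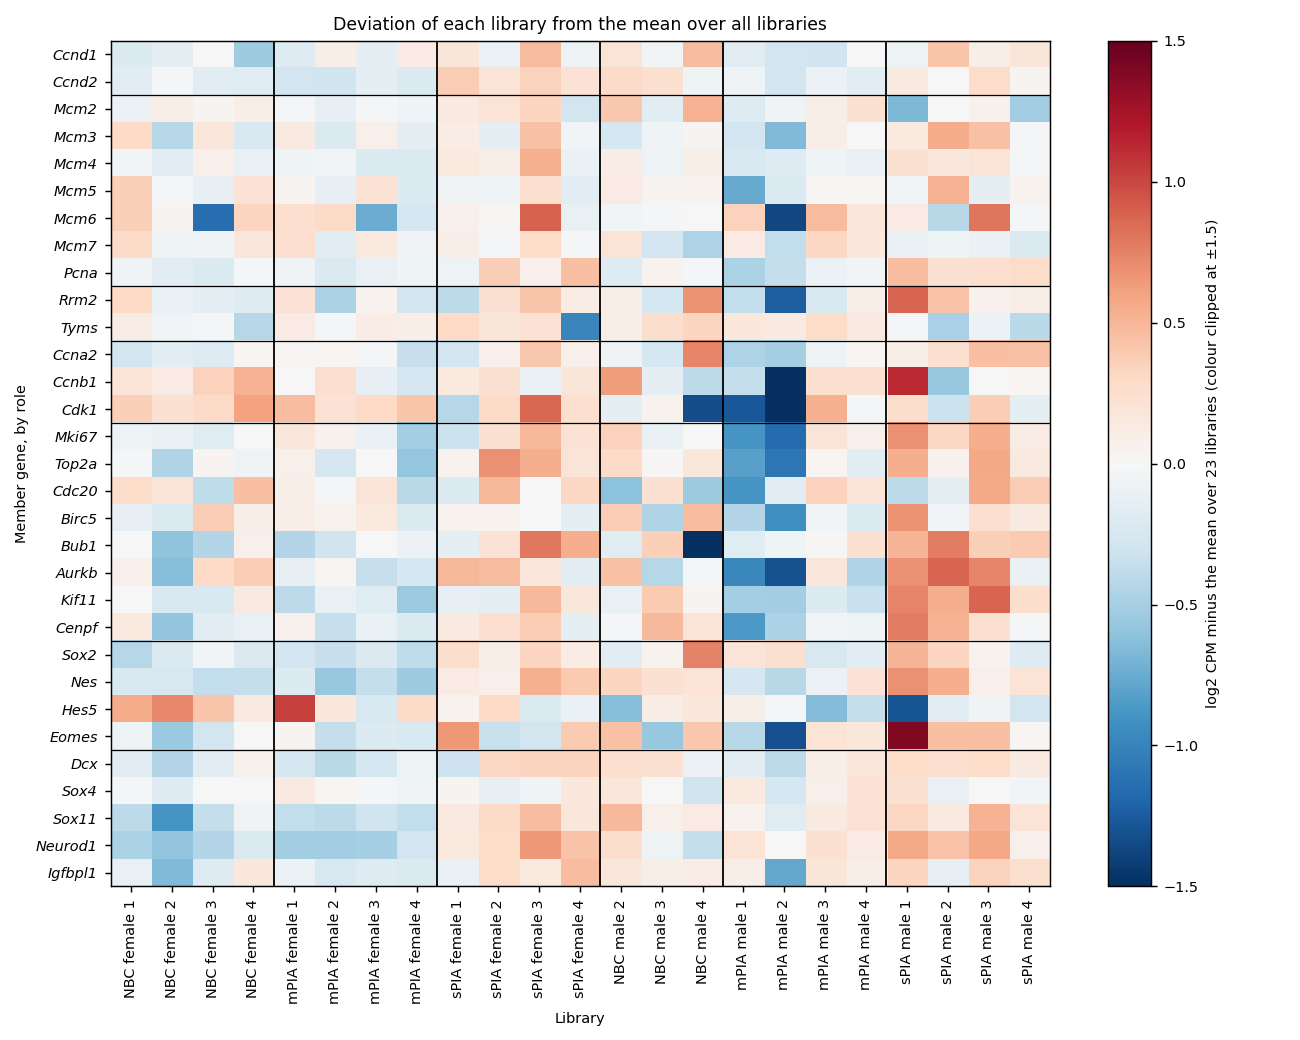
Deviation of log2 CPM from its mean over the 23 libraries (colour, clipped at 1.5 in either direction) for the 31 members (rows, by role) and all libraries (columns, by group; black lines separate groups and roles). mPIA males 1 and 2 are blue across most cell-cycle rows, and NBC and mPIA females are mostly blue across Sox2, Nes, Sox11 and Neurod1.

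Among the 49 tested genes of this G2 and M list, 43 were positive between sPIA and mPIA males, with a median of 0.36. Of all 15475 genes tested, 329 were called higher and 433 lower in this comparison. In the G2 and M list 3 were called higher and 1 lower. The higher ones were Pbk, a mitotic kinase (0.95 ± 0.26), Bub1b, a spindle checkpoint kinase (1.11 ± 0.31), and Smc4, a condensin subunit (0.44 ± 0.12). Cdc25b was lower (-0.42 ± 0.11). Of the 40 genes of G1 and S none was called, with 29 positive and a median of 0.09. Progenitor genes had 4 of 40 called higher: Fabp7, a fatty-acid binding protein of radial glia (0.85 ± 0.17), Ednrb (0.41 ± 0.10), Vim, which encodes vimentin (0.57 ± 0.15), and Emx2 (0.38 ± 0.11). Of 37 immature-neuron genes 3 were called higher, Draxin (1.099 ± 0.19), Cd24a (0.42 ± 0.10) and Gap43 (0.34 ± 0.10). Ependymal genes of motile cilia had 3 of 18 called higher in the same comparison, with a summed level of 80.1 to 119 CPM in sPIA and 61.1 to 71.2 CPM in mPIA males. In the same direction, 19 of 20 meningeal genes (median 0.64) and 14 of 16 choroid plexus genes (median 1.26) were positive with none called; their sums were 301 to 744 against 212 to 439 CPM and 31.8 to 193 against 24.6 to 61.8 CPM. The part of these tissues in the result was not tested. In mPIA against NBC males the same G2 and M list had 12 of 49 positive, a median of -0.23 and 1 call, Cdc25b, which was higher (0.53 ± 0.11).

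The number of called members moved with the fit in some comparisons and little in others. Between sPIA and NBC females it was 5 in the main test, 4 to 7 when single libraries were left out, and 4 to 8 under the other alternatives. Between sPIA and mPIA males it was 7, with 2 to 11 when single libraries were left out. No member that was called in a main test changed direction under any alternative, in 386 values recomputed for called members; 87 of these no longer passed the threshold.

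**Figure D5:**
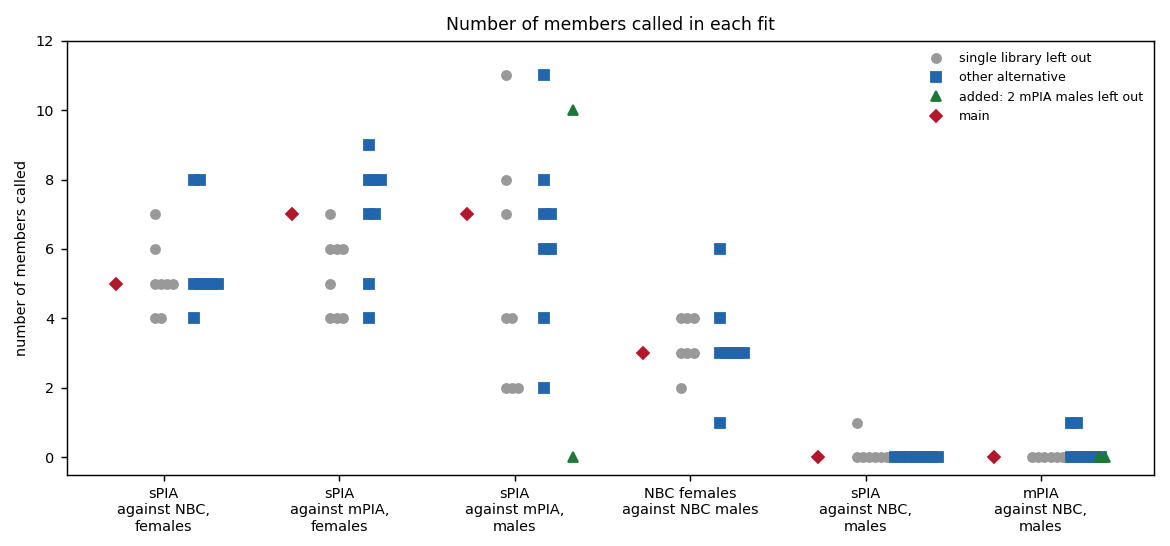
Number of members called of 31 (y axis) in 6 comparisons (x axis) for the main test (red diamonds), fits without a single library (grey circles), other tools and settings (blue squares) and the fits without 2 mPIA males, added after seeing the data (green triangles). Counts stay between 4 and 8 for sPIA against NBC females, and spread from 0 to 11 for sPIA against mPIA males.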

How the data were processed

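Polyadenylated RNA of 23 hippocampi was sequenced from Illumina TruSeq libraries, per the labels' protocols. The authors deposited raw counts of reads per gene symbol, as whole numbers without normalization. Per the submitters' processing notes, FastQC, TopHat2 2.0.13, Subread and edgeR were used with build mm10; their order, and the annotation, strand setting and handling of multi-mapped reads, are not stated there. All columns were matched to samples by name, and groups came from the labels. In all 33 within-group pairs of libraries the counts differed beyond sampling noise, with a chi-square of 3.01 to 30.2 for each degree of freedom, so none was treated as a copy.

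From these counts, CPM with TMM scaling (prior count 2 for log2 values) and edgeR 4.0.16 quasi-likelihood tests with robust fitting were computed in R 4.3.3, in 1 fit of 6 group means after filterByExpr (minimum count 10, total 15). The 9 comparisons were each adjusted over 15475 genes at 0.05. An SE is the log2 change divided by the square root of its F value. DESeq2 1.42.0, limma 3.58.1 (voom), DESeq2 size factors, no low-count filter, only the compared groups, a replicate block, a GC and length trend, a choroid plexus covariate, code prefix and leaving out libraries were tried as alternatives. Tested on simulated data for sPIA against NBC females (15337 genes), edgeR recovered 63% of 1.5-fold and 87% of 2-fold changes with 5.06% false calls; for sPIA against mPIA males (15365 genes) it recovered 58% and 80% with 4.83%.

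The 31 members and 18 gene lists were chosen with earlier results of these data known. All members are described. From each list, at most 5 called genes per comparison are named, by smallest p. Positions and overlaps come from GENCODE M21 (GRCm38, the mm10 build), and the members' genes overlapped by other genes or with pseudogenes are uncertain, since the strand setting is unknown; these include Mcm7 (Cops6 and Ap4m1), Ccna2 (Exosc9), Cdc20 (Elovl1), Tyms and Ccnb1. Figures were drawn with Python 3.11.15 and matplotlib 3.10.9.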

Additional observations from a re-analysis of the deposited data

Results flagged for a closer look

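Within groups of 4 libraries, 8 of 155 tested gene and group combinations held a library whose gap to its nearest neighbour exceeded Dixon's 95% critical share of the group's range, where chance gives about 1 in 20 (7.75 here). Dcx in sPIA female 1 was at 129 CPM beside 199 to 202 CPM in the others. Igfbpl1 in mPIA male 2 was at 20.5 CPM beside 37.4 to 39.8 CPM. Mcm6 in sPIA female 3 was at 26.4 CPM beside 13.1 to 14.85 CPM. Tyms in sPIA female 4 was at 1.68 CPM beside 3.91 to 4.24 CPM. Ccna2 in mPIA female 4 was at 5.68 CPM beside 7.14 to 7.43 CPM. Neurod1 in mPIA female 4 was at 44.5 CPM beside 37.7 to 38.4 CPM. In NBC female 2, Ccnd2 was at 152 CPM beside 137 to 139 CPM and Sox4 at 25.3 CPM beside 28.6 to 29.2 CPM.

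The change of Ccnd2 between sPIA and NBC differed between the sexes by 0.46 on the log2 scale (edgeR adjusted p = 0.038). All 4 sPIA females lay above all NBC females, and the male groups overlapped. The call was lost in 8 of 15 fits that left out a single library. It was also lost with only the compared groups in the fit (edgeR adjusted p = 0.101). Mean Ccnd2 was already 142 CPM in NBC females and 174 CPM in NBC males. Of the groups in this test only NBC females carry codes of digits, so code kind and group cannot be told apart.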

How the results depend on the processing

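Leaving out single libraries gave 4 to 7 called members for sPIA against NBC females and for sPIA against mPIA females, 2 to 11 for sPIA against mPIA males, 2 to 4 for NBC females against NBC males, 0 to 1 for sPIA against NBC males and for the sex difference of the sPIA effect, and 0 to 0 for both mPIA comparisons with NBC and for the sex difference of the mPIA effect. DESeq2 called 8 members for sPIA against NBC females, 11 for sPIA against mPIA males, 6 for NBC females against NBC males, 2 for the sex difference of the sPIA effect and 1 (Ccnd2) for mPIA against NBC males. With only the compared groups in the fit, fewer samples set the spread, and these counts were 8, 2, 1, 0 and 0. With the GC and length trend removed, 4 members were called for sPIA against mPIA in each sex and 1 for mPIA against NBC males. The choroid plexus covariate gave 2 for the sex difference of the sPIA effect. Without the mPIA males of codes M36 and M37, 0 were called for sPIA against mPIA males. Beyond the smaller numbers of samples, the cause of these shifts was not tested.

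Replicate numbers did not pair the samples in most comparisons. Of 25 same-numbered pairs, 3 had deviations correlated above 0.1 (range -0.17 to 0.15), and the own number was the best match in 7. All 3 lay between mPIA and NBC females (0.11, 0.12 and 0.15, with 0.04 for replicate 2). There the own number was the best match for every replicate, and same-numbered libraries share a code prefix. With code prefix as a block, 0 members and 6 genes in all were called in that comparison. With the replicate block, 5, 7, 6 and 3 members were called for sPIA against NBC females, sPIA against mPIA females, sPIA against mPIA males and NBC females against NBC males, 1 for the sex difference of the sPIA effect and 0 elsewhere. The block ended the calls of Sox2 between sPIA and mPIA females (edgeR adjusted p = 0.055), where Top2a was called in addition, and of Aurkb between sPIA and mPIA males (edgeR adjusted p = 0.0609), and kept all others. Over all genes, calls for sPIA against NBC females fell from 2472 to 1359 with the GC and length trend removed, and those for sPIA against mPIA males ran from 276 to 1214 over the tools and settings tried without leaving out named libraries. Depth limits the members with few reads, such as Ccnb1 with as few as 5 counts in a library. Groups of 3 or 4 limit all members.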
